A study of Homo sapiens with 12 samples.

Results

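FOS, FOSL1, JUN, JUNB, EGR1, DUSP1, DUSP4, DUSP5, DUSP6 and SPRY4 are immediate early genes, MAPK phosphatases and a Sprouty protein, that is, genes that MAP kinase signalling switches on and genes whose products hold that signalling back. These 10 genes were listed by name, at a time when earlier results of these data were known, and no threshold on a value was used. Each was matched to 1 Ensembl identifier, and all 10 were read in both cell lines among the 59424 genes of the series. The study altered GALNT7, a glycosyltransferase that adds N-acetylgalactosamine to proteins that already carry it, in prostate cancer cell lines. In CWR22RV1 cells GALNT7 was lowered by an shRNA (GALNT7 KD) and compared with a line that held a control shRNA (shControl). In DU145 cells GALNT7 was overexpressed (GALNT7 OE) and compared with a line that held a control ORF (OE control). All 4 groups were stable lines made by lentiviral transduction, so that the controls carry a vector too, and each had 3 biological replicates, 12 libraries in all. Replicates of a group are samples of the same stable line, so each p-value measures the spread within that line. Whether a stable line was a pool or a clone, and how long after the last change of medium the cells were harvested, is not given in the sources used here.

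Growth factor receptors signal through RAS, RAF, MEK and ERK. Active ERK phosphorylates ternary complex factors such as ELK1, which sit with SRF on the promoters of immediate early genes, and these genes are then transcribed without any new protein. FOS and JUN proteins pair with each other as the transcription factor AP-1, EGR1 is a zinc finger factor, and the DUSP phosphatases and Sprouty proteins are made in response to the signal and act as a brake on it.

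GALNT7 itself followed the labels. Its normalised count fell by 1.11 on the log2 scale (standard error, SE, 0.129; limma adjusted p=0.00512) in GALNT7 KD cells and rose by 1.18 (SE 0.0863, limma adjusted p=7.99e-05) in GALNT7 OE cells. Depth ranged from 18364512 to 20429381 reads in GALNT7 KD and from 21141983 to 22264533 in shControl libraries. Every knockdown library was thus shallower than every control. In DU145 it ranged from 21703978 to 24356910 in GALNT7 OE and from 21628718 to 23288926 in OE control libraries. The part of depth in the changes was not tested. All 4 epithelial markers read were expressed in every library, KRT8 and KRT18 with normalised counts of 4479 or more, CDH1 with 1150 or more and EPCAM with 227 or more. EPCAM fell by 0.71 and KRT18 by 0.35 in knockdown (limma adjusted p=0.0127 and 0.0238), and in overexpression EPCAM rose by 0.62 and CDH1 fell by 0.58 (limma adjusted p=0.00156 and 0.00917). KRT18 lies on chromosome 12, where the genes tested in knockdown other than DUSP6 had a median of -0.28. The part of these marker changes in those of the 10 genes was not tested. Of 8 markers of fibroblasts, leucocytes and endothelium, CD3E was at 0 in all 12 libraries and PTPRC reached at most 2.10. The sum of the 8 was 172 to 192 in shControl and 166 to 260 in GALNT7 KD libraries. It was 2889 to 3205 in the OE control and 1063 to 1243 in GALNT7 OE libraries, mostly through CD68, and its part in the changes of the overexpression comparison was not tested.

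The promoters of FOS, EGR1 and DUSP1 are shown as examples from a set of genes, described further on, that was named after its values were seen. Their motif matches differ, as given below, and no relation between the matches and the levels of the genes was tested. The sequences are RefSeq's, on GRCh38.p14, each ending just before the gene's annotated start and read 5′ to 3′ on the gene's strand, and RefSeq promoters were matched for 7 of the 10 genes. The FOS stretch stops earlier, where GENCODE release 29 places the start of the gene. Capitals mark the motifs TGACGTCA (the cAMP response element), TGACGT (its shorter form, which lies inside it) and the CArG box bound by SRF, found on either strand.
FOS, chr14:75278628-75278773 (+): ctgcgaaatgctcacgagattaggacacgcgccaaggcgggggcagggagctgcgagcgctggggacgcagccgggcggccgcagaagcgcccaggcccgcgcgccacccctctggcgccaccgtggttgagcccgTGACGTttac
EGR1, chr5:138465279-138465478 (+): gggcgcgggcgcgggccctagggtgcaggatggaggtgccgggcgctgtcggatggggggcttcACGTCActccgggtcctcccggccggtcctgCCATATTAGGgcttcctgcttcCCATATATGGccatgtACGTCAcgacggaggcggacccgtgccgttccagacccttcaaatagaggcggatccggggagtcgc
DUSP1, chr5:172771196-172771395 (-): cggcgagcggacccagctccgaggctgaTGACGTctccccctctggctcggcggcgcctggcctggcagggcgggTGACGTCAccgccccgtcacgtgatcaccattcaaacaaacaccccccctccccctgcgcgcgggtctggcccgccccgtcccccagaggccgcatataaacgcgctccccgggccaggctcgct
EGR1 held 2 CArG boxes, which start 105 and 83 bases upstream of its start, and was the only 1 of the 7 genes with a match to that motif in the 250 bases searched. A CArG box was found in 1.16% of all 35116 promoters. TGACGT was found in FOS, EGR1 and DUSP1 and in 7.1% of all promoters, and the full TGACGTCA in DUSP1 and in 1.65%. JUN, whose window lies inside its gene in GENCODE and is not printed, held TGACATCA, the variant AP-1 site, 67 bases upstream of its RefSeq start, as did 2.37% of all promoters. TGACTCA, the common AP-1 site, was in none of the 7 windows and in 4.2% of all promoters. A match describes letters only, and a window without a match says nothing about binding.

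In control cells the 10 genes were expressed at very unequal levels. Set per kilobase of merged exons, within CWR22RV1 shControl cells, EGR1 was the highest at 607 ± 46.7 normalised counts per kb (SD, n=3), followed by JUNB at 391 and DUSP6 at 271. FOS (169), JUN (140), SPRY4 (133) and DUSP1 (127) came next, and each of these overlapped its neighbour in the order over the 3 libraries. DUSP4 (89.9) and DUSP5 (24.9) followed, and FOSL1, which encodes the FOS relative FRA1, was the lowest at 7.28 ± 2.39 (SD, n=3). Within DU145 OE control cells EGR1 was again the highest at 4809 ± 112 normalised counts per kb (SD, n=3). The order went on with DUSP1 (3084), JUNB (2846), FOS (1264), JUN (1102), FOSL1 (891), DUSP5 (872), DUSP6 (326) and DUSP4 (94.0) to SPRY4 at 19.4 ± 3.45 (SD, n=3), and only FOSL1 and DUSP5 overlapped as neighbours. The tables of the cell lines were scaled separately, so no level was compared between the lines.

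**Figure D1:**
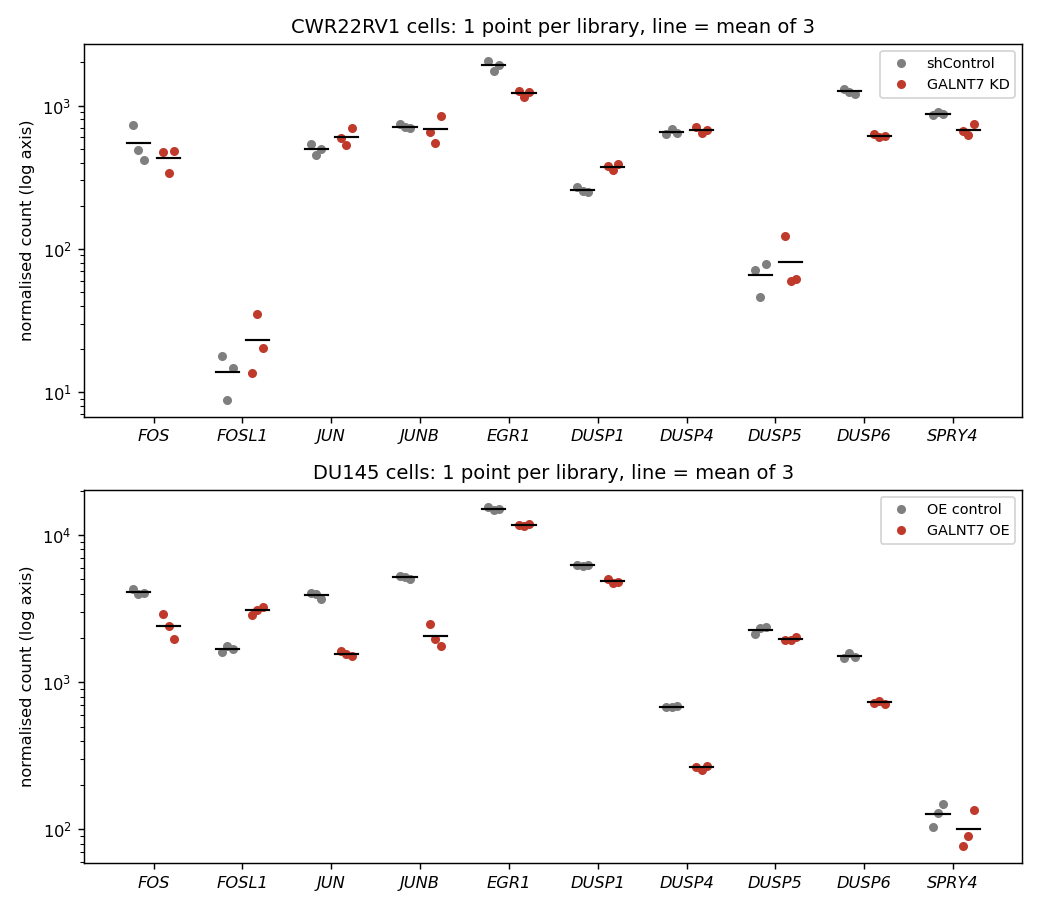
Normalised counts of the 10 genes (log axis), with 1 point per library and a line at the mean of 3 libraries, for CWR22RV1 cells (top) and DU145 cells (bottom). The groups of DUSP6 lie apart in both cell lines, at 1212 to 1309 against 601 to 630 and at 1451 to 1589 against 712 to 749, whereas those of FOS overlap in CWR22RV1 and not in DU145.

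In CWR22RV1 cells with GALNT7 KD, EGR1, DUSP6 and SPRY4 fell, DUSP1 rose, and the 4 AP-1 genes did not pass the test. Of the 10 genes, 1 was higher and 3 were lower at an adjusted p of 0.05, where 5.28% of all 17906 genes tested were higher and 3.79% lower. The groups did not overlap for those 4 genes, against 32.5% of all genes tested. For each gene of the 10 without overlap, here and in DU145 cells, a two-sided exact permutation test gave p=0.1, the smallest that 3 libraries against 3 allow. The median log2 fold change of the 10 was -0.016, beside -0.0063 over all genes tested. In DU145 cells with GALNT7 OE, FOS, JUN, JUNB, EGR1, DUSP1, DUSP4, DUSP5 and DUSP6 fell, FOSL1 rose, and SPRY4 did not pass. This comparison called far more of all genes, with 22.9% of 18705 higher and 20.5% lower, and 8 of the 10 genes were among the lower ones. The groups did not overlap for 9 of the 10 genes, against 55.3% of all genes tested. The median of the 10 was -0.57, beside -0.011 over all genes tested. Scaling each library to its 75th percentile left these calls as they were, although it turned the 4290 higher and 3842 lower calls over all genes into 3380 and 4737. Correcting each library for GC content and length gave the 10 a median of -0.44, beside -0.043 over all genes. The falls of FOS (-0.63), JUN (-1.05), JUNB (-0.95), DUSP1 (-0.25) and DUSP4 (-1.14) were then smaller and still passed. Those of EGR1 and DUSP5 were also smaller, as given below, whereas the changes of DUSP6 (-1.15) and FOSL1 (1.03) were larger.

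**Figure D2:**
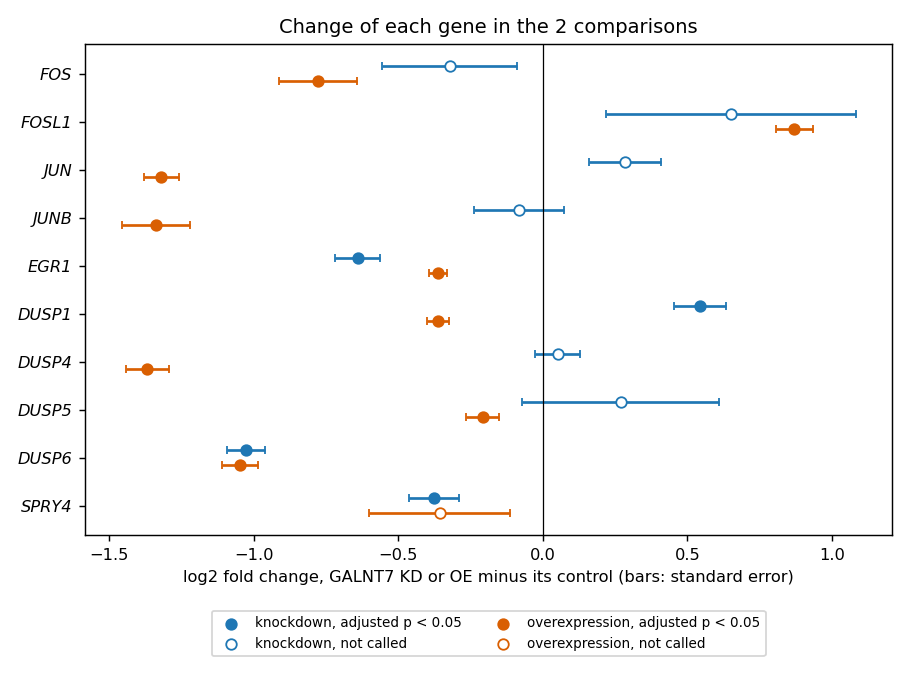
Log2 fold change of each of the 10 genes against its control, with standard errors as bars, for GALNT7 knockdown in CWR22RV1 (blue) and overexpression in DU145 (orange); filled points passed a limma adjusted p of 0.05. DUSP6 lies near -1 in both comparisons, at -1.03 and -1.05, and DUSP1 lies at 0.54 and -0.36.

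FOS encodes the best known partner of JUN in AP-1. In CWR22RV1 it had normalised counts of 736, 492 and 419 in the shControl libraries and of 475, 340 and 480 in GALNT7 KD. The highest control stood apart from the other libraries and the groups overlapped, with a log2 fold change of -0.32 (SE 0.234, limma adjusted p=0.436). With 1 library left out this ran from -0.50 without shControl replicate 3 to -0.16 without GALNT7 KD replicate 2 and -0.091 without shControl replicate 1, the highest control. In DU145 cells FOS had 4309, 3954 and 4018 in the OE control and 2894, 2403 and 1953 in GALNT7 OE. All 3 libraries with extra GALNT7 were below every control, and FOS fell by 0.78 on the log2 scale (SE 0.134, limma adjusted p=0.00348).

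FOSL1 was the only gene of the 10 that rose with GALNT7 OE. Its normalised counts were 1610, 1757 and 1677 in the OE control and 2871, 3106 and 3252 in GALNT7 OE, with no overlap. The log2 fold change was 0.87 (SE 0.0646, limma adjusted p=8.40e-05), and each library left out in turn gave 0.83 to 0.92. In CWR22RV1, where it was scarce, FOSL1 had 17.7, 8.84 and 14.6 in shControl and 13.5, 35.2 and 20.2 in GALNT7 KD. The groups overlapped and the value of 0.65 had a standard error of 0.431 (limma adjusted p=0.392). It was 0.30 without GALNT7 KD replicate 2, 0.38 without shControl replicate 2 and 0.96 without GALNT7 KD replicate 1.

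JUN and JUNB, which supply the other partner of AP-1, fell together in DU145 cells. JUN had normalised counts of 4057, 3968 and 3684 in the OE control and of 1641, 1547 and 1501 in GALNT7 OE, a log2 fold change of -1.32 (SE 0.0599, limma adjusted p=1.04e-05). JUNB had 5303, 5223 and 5016 in the OE control and 2479, 1963 and 1763 in GALNT7 OE, a log2 fold change of -1.34 (SE 0.118, limma adjusted p=0.000178). For each gene the 2 groups lay far apart, with means in GALNT7 OE cells of 1563 ± 71.2 and 2068 ± 369 (SD, n=3). In CWR22RV1 the groups overlapped for both. JUN had 541, 455 and 494 in shControl and 592, 531 and 700 in GALNT7 KD, a log2 fold change of 0.28 (SE 0.125, limma adjusted p=0.209), which was 0.18 without GALNT7 KD replicate 3. JUNB had 742, 703 and 692 in shControl and 655, 547 and 849 in GALNT7 KD, a log2 fold change of -0.083 (SE 0.156, limma adjusted p=0.790). The sign of JUNB in CWR22RV1 turned to 0.066 without GALNT7 KD replicate 2. JUNB overlaps HOOK2 on the other strand. The library kit keeps the strand, but whether strand was used in counting is not stated, and without it such reads could not be told apart.

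The make-up of AP-1 transcripts shifted in DU145 cells. Within the FOS family, by level per kb, FOSL1 made up 25.8% ± 1.82 of the summed level in the OE control and 53.8% ± 4.91 in GALNT7 OE (SD, n=3). FOS made up 36.6% and then 24.5%, and FOSL2, which encodes FRA2, 37.3% and then 21.1%. FOSB stayed under 1% in both groups, with means of 0.325% and 0.574%. None of these shares overlapped between the groups, and a share does not depend on how a library is scaled. The summed level of the FOS family changed from 3456 ± 131 to 3035 ± 92.2 normalised counts per kb (SD, n=3), or by -12.2%, and by -18.0% with 75th percentile scaling. That of the JUN family changed from 4946 ± 169 to 2160 ± 335 (SD, n=3), or by -56.3%. JUNB went from 57.6% to 52.5% of the JUN family and JUND from 20.2% to 26.8%, while the share of JUN overlapped at 22.3% and 20.7%. In CWR22RV1 cells the sums overlapped, at 219 ± 63.4 against 195 ± 16.2 for the FOS family and 956 ± 39.0 against 991 ± 168 for the JUN family (SD, n=3).

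**Figure D3:**
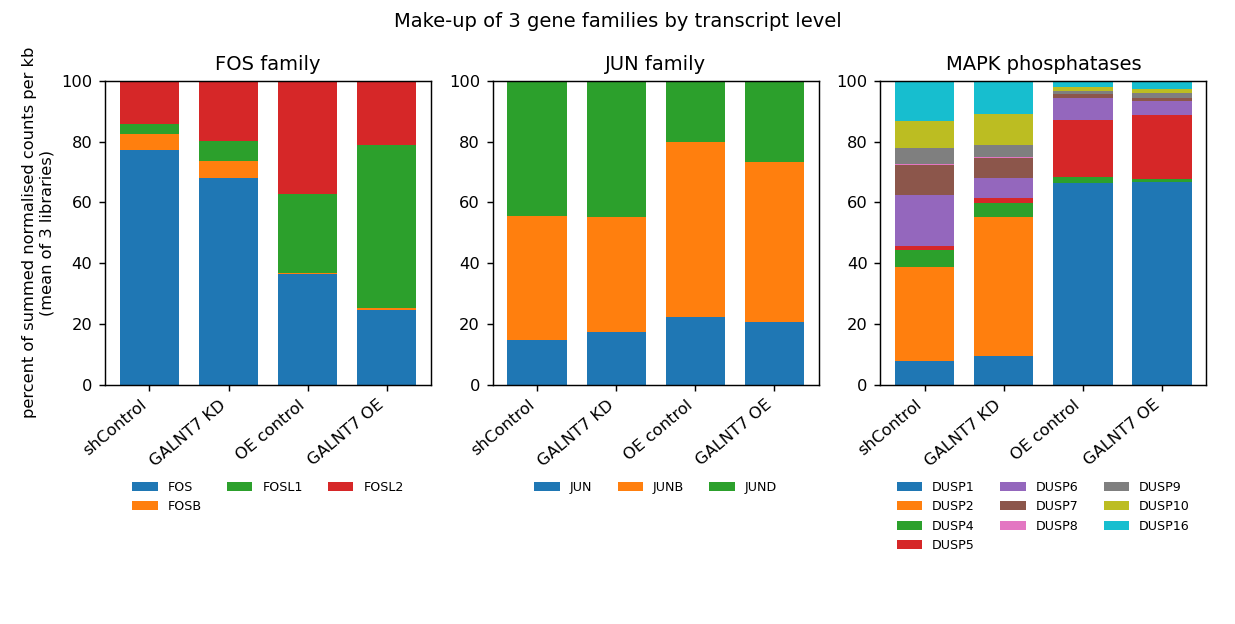
Percent of the summed normalised counts per kb (mean of 3 libraries) that each gene contributed to the FOS family, the JUN family and the MAPK phosphatases, in the 4 groups. FOSL1 takes 53.8% of the FOS family in GALNT7 OE cells against 25.8% in the OE control, and DUSP2 takes 45.7% of the MAPK phosphatases in GALNT7 KD cells against 30.9% in shControl.

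EGR1, a zinc finger transcription factor that answers growth factors within minutes, was lower in both comparisons. In CWR22RV1 it had normalised counts of 2049, 1756 and 1908 in shControl and of 1265, 1149 and 1245 in GALNT7 KD. Every knockdown library lay below every control, and EGR1 fell by 0.64 on the log2 scale (SE 0.0782, limma adjusted p=0.00646). In DU145 cells it had 15491, 14837 and 14941 in the OE control and 11779, 11539 and 11863 in GALNT7 OE. Again there was no overlap, and EGR1 fell by 0.36 (SE 0.0319, limma adjusted p=0.000171). With each library corrected for GC content and length this second fall was smaller, at -0.16, and still passed.

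DUSP6, the cytoplasmic phosphatase specific for ERK and a widely used readout of ERK activity, fell in both cell lines. It had normalised counts of 1309, 1245 and 1212 in shControl and of 630, 601 and 615 in GALNT7 KD, and fell by 1.03 on the log2 scale (SE 0.0667, limma adjusted p=0.000696). In DU145 cells it had 1451, 1589 and 1487 in the OE control and 726, 749 and 712 in GALNT7 OE, and fell by 1.05 (SE 0.0631, limma adjusted p=3.44e-05). The libraries of each group lay close together and far from the other group. Over 17 alternatives the change ran between -1.05 and -0.997 in the KD comparison and between -1.15 and -1.01 in the OE comparison. DUSP6 lies on chromosome 12, and the other 921 genes of that chromosome tested in knockdown were themselves lower, with a median log2 fold change of -0.28 and 83.2% of them below 0. The value of DUSP6 minus that median was -0.75, and 59 of those genes had a larger fall. The part of this shift in the value of DUSP6 was not tested. In DU145 cells the median of the chromosome was 0.069.

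DUSP1, a nuclear phosphatase that acts on JNK, p38 and ERK, was the only 1 of the 10 that passed in opposite directions. In CWR22RV1 it had normalised counts of 269, 252 and 250 in shControl and of 378, 357 and 390 in GALNT7 KD. The knockdown libraries were all above the controls, and DUSP1 rose by 0.54 on the log2 scale (SE 0.0909, limma adjusted p=0.0170). The size was stable but the call was not. The limma adjusted p was 0.0540, 0.0559 and 0.0632 without shControl replicate 1, 2 or 3, and 0.0695 without GALNT7 KD replicate 1. In DU145 cells DUSP1 had 6224, 6196 and 6258 in the OE control and 4999, 4763 and 4766 in GALNT7 OE. There it fell by 0.36 (SE 0.0380, limma adjusted p=0.000376), again without overlap. The difference between the lines was not tested, since each line is a different comparison on a separately scaled table.

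DUSP4 and DUSP5 are nuclear phosphatases, the latter specific for ERK. DUSP4 had normalised counts of 674, 679 and 694 in the OE control and of 265, 255 and 272 in GALNT7 OE. With a log2 fold change of -1.37 (SE 0.0740, limma adjusted p=2.26e-05) its fall was close to those of JUN and JUNB. In CWR22RV1 it had 637, 683 and 638 in shControl and 713, 642 and 674 in GALNT7 KD, with overlap and a log2 fold change of 0.051 (SE 0.0774, limma adjusted p=0.729) that ran from 0.013 to 0.088 with a library left out. DUSP5 had 2144, 2335 and 2362 in the OE control and 1936, 1950 and 2033 in GALNT7 OE. It fell by 0.21 (SE 0.0573, limma adjusted p=0.0243), the smallest of the falls that passed. This call was lost without OE control replicate 2 (limma adjusted p=0.0805) or 3 (0.0824) and without GALNT7 OE replicate 1 (0.0574) or 2 (0.0684). It was also lost without a trend in the fit (0.0640) and with the GC and length correction, at -0.13 (limma adjusted p=0.108). In CWR22RV1 DUSP5 had 70.9, 46.0 and 78.7 in shControl and 123, 59.7 and 61.6 in GALNT7 KD. The high value came from GALNT7 KD replicate 1, and the log2 fold change of 0.27 (limma adjusted p=0.673) became -0.066 without it.

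Among the 10 MAPK phosphatases together, which adds DUSP2, DUSP7, DUSP8, DUSP9, DUSP10 and DUSP16 to the 4 above, the summed level changed from 1630 ± 20.1 to 1988 ± 194 normalised counts per kb (SD, n=3) with GALNT7 KD, or by 22.0%. DUSP2, a nuclear phosphatase known mainly from lymphocytes, rose by 0.84 on the log2 scale (SE 0.115, limma adjusted p=0.00894), from 985, 953 and 985 to 1782, 1478 and 2025. Its share of the family went from 30.9% to 45.7%, while that of DUSP6 went from 16.6% to 6.72% and that of DUSP1 from 7.80% to 9.38%. The other 5 did not pass in knockdown, with log2 fold changes of -0.26 for DUSP7, 0.10 for DUSP8, -0.19 for DUSP9, 0.49 for DUSP10 and 0.0024 for DUSP16. With GALNT7 OE the sum changed from 4646 ± 51.0 to 3592 ± 59.9 (SD, n=3), or by -22.7%. Cytoplasmic DUSP7 fell by 0.80 (limma adjusted p=0.000576) and DUSP10, which prefers JNK and p38, by 0.55 (limma adjusted p=0.0200). DUSP9 rose by 0.65 (limma adjusted p=0.00485), with normalised counts of 96.4, 106 and 99.7 in the OE control and of 163, 166 and 146 in GALNT7 OE. DUSP2 (-0.17), DUSP8 (-0.32) and DUSP16 (0.076) did not pass. DUSP1 remained the main phosphatase transcript, at 66.4% and 66.8% of the sum, and the share of DUSP4 went from 2.02% to 1.01%. The call of DUSP10 was lost without OE control replicate 1 or GALNT7 OE replicate 2 or 3 (limma adjusted p up to 0.0625), and with the GC and length correction DUSP7 had -0.47 and DUSP9 1.10.

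SPRY4, which restrains RAS to ERK signalling below growth factor receptors, had normalised counts of 860, 899 and 868 in shControl and of 666, 621 and 742 in GALNT7 KD. The groups did not overlap, and SPRY4 fell by 0.38 on the log2 scale (SE 0.0859, limma adjusted p=0.0433). Being close to the threshold, the call was lost without shControl replicate 1 (limma adjusted p=0.119), 2 (0.117) or 3 (0.119) and without GALNT7 KD replicate 1 (0.129) or 2 (0.0921). It was also lost with no filter on low counts (0.0622) and without a trend in the fit (0.0792). In DU145 cells, where it was scarce, SPRY4 had 104, 130 and 149 in the OE control and 77.2, 90.6 and 136 in GALNT7 OE. The groups overlapped, with a log2 fold change of -0.36 (SE 0.244, limma adjusted p=0.282). This was -0.18 without GALNT7 OE replicate 1, -0.24 without OE control replicate 3, -0.59 without GALNT7 OE replicate 3, -0.17 with quantile normalisation and -0.23 with the GC and length correction. SPRY4 and DUSP6 each overlap a gene on the other strand, SPRY4-AS1 and AC024909.2, and DUSP1 overlaps AC022217.3, with the same limit on strand as for JUNB.

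The other Sprouty and SPRED genes, which share the brake function, were lower or did not pass. SPRY2 passed in both comparisons, falling by 0.37 in knockdown (SE 0.0856, limma adjusted p=0.0447) and by 0.60 in overexpression (SE 0.0520, limma adjusted p=0.000163). Its normalised counts were 371, 386 and 397 in shControl against 305, 287 and 301 in GALNT7 KD. In DU145 cells they were 1487, 1470 and 1496 in the OE control against 972, 993 and 970 in GALNT7 OE. SPRED3 fell by 0.67 and SPRY3 by 0.51 in overexpression (limma adjusted p=0.00667 and 0.0356). In all, 1 of 5 genes tested was lower and 0 higher in knockdown, beside 3.79% and 5.28% of all genes. In overexpression 3 of 6 were lower and 0 higher, beside 20.5% and 22.9% of all genes. At an unadjusted p of 0.05 limma gave 1 higher in each comparison, edgeR called 0 and 1 higher and DESeq2 1 and 1. SPRY1 (0.27 and 0.24), SPRED1 (-0.093 and -0.076) and SPRED2 (-0.18 and 0.20) did not pass in either comparison, SPRED3 (-1.15) did not pass in knockdown, and SPRY3 was too scarce there to be tested. The knockdown call of SPRY2 was lost with any 1 of the 6 libraries left out (limma adjusted p=0.0716 to 0.139). That of SPRY3 was lost without any of the OE control libraries or GALNT7 OE replicate 2 or 3 (0.0622 to 0.108), and its value was -0.25 with quantile normalisation.

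Of 23 other AP-1 and immediate early transcription factors, 1 of the 21 tested was higher and 1 lower in knockdown, with a median log2 fold change of -0.048. Over all genes 5.28% were higher and 3.79% lower there. In overexpression 2 of 22 were higher and 11 lower, with a median of -0.41, beside 22.9% and 20.5% of all genes. FOSL2 fell by 1.01, MAFK, a small MAF partner, by 0.98 and IER5L by 0.95 (limma adjusted p=0.000136, 0.00272 and 0.00725). The orphan nuclear receptor gene NR4A3 went the other way, with 106, 90.0 and 74.6 normalised counts in the OE control and 441, 415 and 423 in GALNT7 OE. Its log2 fold change was 2.24 (SE 0.145, limma adjusted p=4.67e-05), and the stress factor ATF3 rose by 0.42 (limma adjusted p=0.00436). In knockdown IER2 fell by 0.56 (SE 0.0981, limma adjusted p=0.0195). NR4A3 rose by 1.32 there too (limma adjusted p=0.0153), from few reads, with 20.5, 20.3 and 24.7 normalised counts in shControl and 57.0, 65.1 and 47.2 in GALNT7 KD. IER3 was listed at 0 in all 12 libraries. Whether its reads lie under identifiers missing from the annotation was not checked, so this is not read as absence of expression. In knockdown IER2 was no longer called without shControl replicate 1 or 3 or GALNT7 KD replicate 1 (limma adjusted p up to 0.0767), nor NR4A3 without shControl replicate 1 or 2 or GALNT7 KD replicate 1 (up to 0.0655). With the GC and length correction MAFK and IER5L had -0.51 and -0.48 in overexpression and still passed.

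Of 17 other immediate early effectors, 0 were higher and 5 lower in knockdown, beside 5.28% and 3.79% of all genes, with a median of -0.38. In overexpression 2 were higher and 8 lower, beside 22.9% and 20.5% of all genes, with a median of -0.21. At an unadjusted p of 0.05 limma gave 2 higher in knockdown, where edgeR called 0 and DESeq2 1. CCN1, a secreted matrix protein and YAP target, fell by 1.34 in knockdown (SE 0.142, limma adjusted p=0.00375), from 184, 177 and 207 to 77.3, 80.0 and 65.5 normalised counts. Its relative CCN2 fell by 3.92 (SE 0.289, limma adjusted p=0.00109), from 58.8, 59.2 and 55.9 to 3.87, 2.13 and 2.89. TRIB1, which scaffolds a ubiquitin ligase, ZFP36L2, which promotes mRNA decay, and MCL1, which protects from apoptosis, fell by 0.55, 0.38 and 0.29 (limma adjusted p=0.0103, 0.0111 and 0.0105). In overexpression SGK1, a kinase related to AKT, fell by 2.35 (limma adjusted p=8.59e-06), from 1869, 1761 and 1713 to 306, 389 and 353. ZFP36L1 fell by 1.69 and TRIB1 by 1.31 (limma adjusted p=8.13e-06 and 5.02e-05). The stress genes GADD45B and PPP1R15A rose by 0.38 and 0.33 (limma adjusted p=0.0264 and 0.00365). In knockdown ZFP36L2 was lost without shControl replicate 1 or 3 or GALNT7 KD replicate 1 (limma adjusted p up to 0.0554), TRIB1 without GALNT7 KD replicate 1 (0.0504) and MCL1 without shControl replicate 1 (0.0528). GADD45B was lost without any of the OE control libraries or GALNT7 OE replicate 2 (up to 0.0803), and with 75th percentile scaling (0.0781) or quantile normalisation (0.0866), and PPP1R15A had 0.52 with the GC and length correction.

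The genes that carry the signal were counted in the same way. Of 20 genes read of the RAS to ERK cascade, 0 passed in knockdown by limma, beside 5.28% higher and 3.79% lower over all genes. The median of the 20 was 0.040. At an unadjusted p of 0.05 limma gave 2 higher and 5 lower, and on recovered reads edgeR called 0 higher and 1 lower and DESeq2 0 higher and 3 lower. In overexpression 6 were higher and 3 lower, near the shares of 22.9% and 20.5% over all genes, with a median of 0.11. RASA1, which switches RAS off, rose by 0.97, and NRAS by 0.76 (limma adjusted p=0.000146 and 5.62e-05). The scaffold KSR1 fell by 1.00, the adaptor SHC1 by 0.30 and the ERK-activated kinase RPS6KA2 by 0.29 (limma adjusted p=0.00638, 0.00117 and 0.00350). MAPK3, which encodes an ERK kinase, had log2 fold changes of 0.11 in knockdown and of -0.044 in overexpression and did not pass. Of 17 genes of the JNK, p38 and ERK5 cascades, 1 was higher and 1 lower in knockdown, and 6 were higher and 7 lower in overexpression, with the same shares over all genes. MAPKAPK2, a kinase that p38 activates, rose by 0.61 in knockdown and fell by 0.63 in overexpression (limma adjusted p=0.0119 and 0.00163). MAPK10, which encodes JNK3, fell by 1.15 in knockdown (limma adjusted p=0.0345), and MAPK11 and MAPK12, which encode forms of p38, fell by 1.00 and 0.61 in overexpression (limma adjusted p=0.000692 and 0.00393). MAPKAPK3, MAP2K4 and MAP2K3 rose by 0.83, 0.70 and 0.41 in overexpression (limma adjusted p=0.000227, 0.00220 and 0.0388). The calls of MAPK10 (without any library but GALNT7 KD replicate 2, limma adjusted p up to 0.114), of MAPKAPK2 in knockdown (without shControl replicate 1, 0.0505) and of MAP2K3 (without any library but GALNT7 OE replicate 3, up to 0.113) were lost with 1 library left out, that of MAP2K3 also with 75th percentile scaling (0.0947) or quantile normalisation (0.0793). With the GC and length correction MAP2K4 had 0.43, MAPK11 -0.66 and MAPK12 -0.23, the last no longer called, and SHC1 had -0.10 with quantile normalisation.

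Of 6 genes for SRF and its partners, ELK3 rose by 0.86 in knockdown and fell by 0.77 in overexpression (limma adjusted p=0.00867 and 0.000123), while SRF itself had values of -0.25 and 0.016 and did not pass. In overexpression MRTFA fell by 0.36 and ELK4 rose by 0.62 (limma adjusted p=0.0221 and 0.0239). Of 7 other genes of a signature of ERK output, 0 were higher and 2 lower in knockdown, beside 5.28% and 3.79% of all genes. The 2 were CCND1, the cyclin of the G1 phase, which fell by 0.39 (limma adjusted p=0.0177), and SPRY2 as above. No gene of this list was higher in knockdown at an unadjusted p of 0.05, by edgeR or by DESeq2 either. In overexpression 2 were higher and 2 lower, beside 22.9% and 20.5% of all genes. The ephrin receptor gene EPHA4 fell by 1.72 and SPRY2 by 0.60, whereas EPHA2 and the ETS factor gene ETV4 rose by 0.64 and 0.65 (limma adjusted p=0.00189, 0.000163, 0.00283 and 0.00283). ELK4 was lost without GALNT7 OE replicate 2 or 3 (limma adjusted p up to 0.0750), MRTFA without OE control replicate 1 (0.0681) or GALNT7 OE replicate 1 (0.0504) and with the GC and length correction, at -0.0031. CCND1 was lost without shControl replicate 1 or 3 or GALNT7 KD replicate 1 (limma adjusted p up to 0.0712). CCN2, MCL1, NR4A3 in knockdown and MAPK10 lie outside the rule for named genes and were named after their values were seen. Counted over all lists together, with each gene counted once, 5 genes were higher and 9 lower in knockdown, beside 5.28% and 3.79% of all genes. The numbers tested are given list by list, and the pooled count is not read as a result about these genes. Without shControl replicate 1 it was 3 higher and 3 lower. The lower count was 5 without shControl replicate 3 and 3 without GALNT7 KD replicate 1.

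Handling of cells induces heat shock genes as well as immediate early genes, so a list of 8 heat shock genes was read beside them. In knockdown 1 of 7 tested was higher and 0 lower, beside 5.28% and 3.79% of all genes. The median was 0.19, and HSP90AA1 rose by 0.28 (limma adjusted p=0.00717). In overexpression 5 of 7 were higher and 0 lower, beside 22.9% and 20.5% of all genes, with a median of 0.25. In neither comparison was any lower by limma at an unadjusted p of 0.05, by edgeR or by DESeq2. HSPE1, HSPH1 and HSP90AA1 rose by 0.91, 0.63 and 0.54 (limma adjusted p=0.000312, 0.00411 and 1.12e-05). HSPA1A was listed at 0 in all 12 libraries and is nearly identical to HSPA1B, so the value of either is uncertain. HSP90AA1 was not called in knockdown without a trend in the fit (limma adjusted p=0.0844) and had 0.30 in overexpression with the GC and length correction. The part of these changes in those of the 10 genes was not tested.

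**Figure D4:**
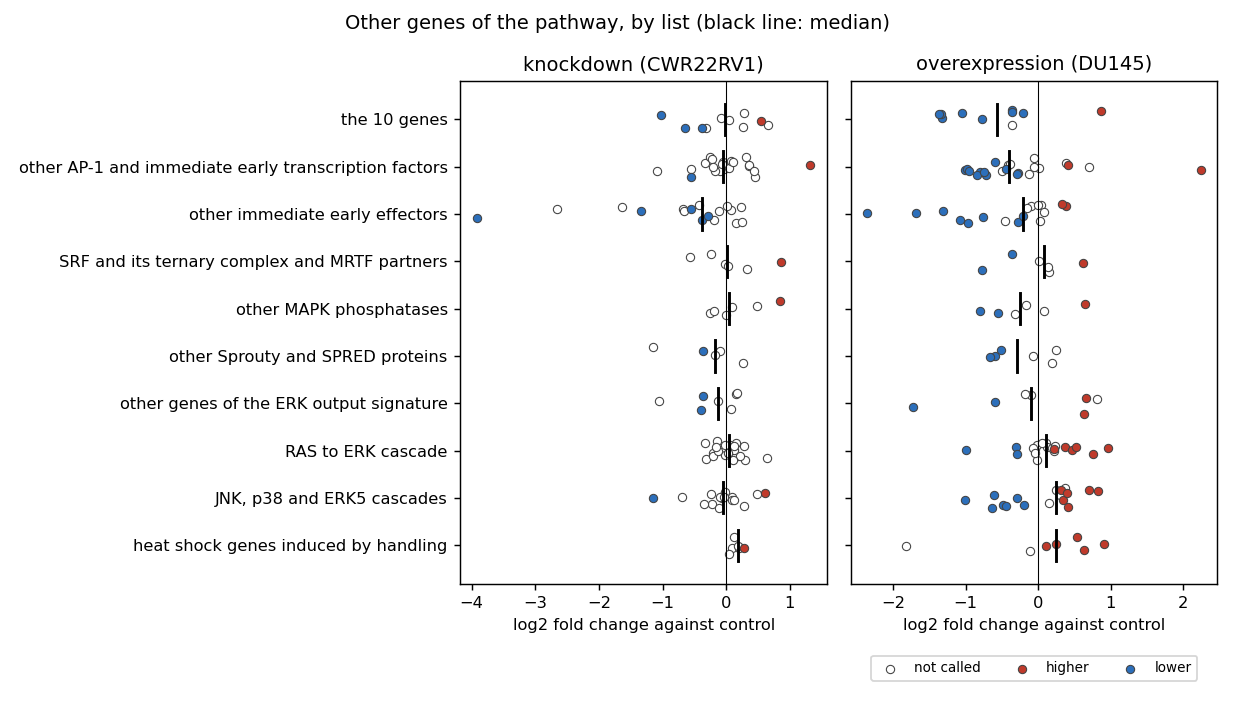
Log2 fold change of every gene tested in the 10 genes and in 9 lists of related genes, 1 point per gene, for knockdown in CWR22RV1 (left) and overexpression in DU145 (right); red and blue points passed a limma adjusted p of 0.05 and the black line is the median of a list. The medians of the 10 genes lie at -0.016 and -0.57, and 11 of 22 other immediate early transcription factors are lower in DU145.

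Some of the 10 genes also varied together between replicates of the same group. For each gene the mean of its group was taken from its log2 values, and the deviations were compared over the 12 libraries. Since each group mean was removed, a change with GALNT7 does not enter, and values of 1 library share its depth and handling. The highest Pearson's r was 0.91, between FOS and DUSP1. JUN and JUNB gave 0.84, JUN and DUSP1 0.84 and JUNB and DUSP1 0.82. Among FOS, JUN, JUNB, EGR1 and DUSP1, a set named after the values were seen, the 10 pairs ranged from 0.38 to 0.91. Deviations of this set were wider in CWR22RV1, at -0.069 to 0.066 for DUSP1 against -0.024 to 0.046 in DU145. For EGR1 they were -0.11 to 0.11 against -0.024 to 0.038. These values of r thus rest more on CWR22RV1. All genes of the set were below 0 in GALNT7 KD replicate 2, the library with the fewest reads. Removing the group means also leaves fewer independent values than 12. Over all 45 pairs the median was 0.11 and 11 lay above 0.5, and the lowest was -0.84, between FOSL1 and DUSP4. FOSL1 had normalised counts of at most 35.2 in CWR22RV1. Its deviations ran from -0.62 to 0.70 there, against -0.098 to 0.082 in DU145, so this value rests on libraries where FOSL1 was scarce. Against 11815 genes with enough reads, the deviations of EGR1 were most like those of TRMT2A (0.98), CMTR1 (0.97), SMPD4 (0.95), TXNDC12 (0.93) and SEMA4C (0.93). Those of DUSP6 were most like OTUD1 (0.94), WDFY2 (0.90), DNAJB11 (0.90), SLC25A13 (0.87) and BTBD10 (0.87). With 12 libraries and this many genes, high values of r are found for any gene, and they are given as a description.

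**Figure D5:**
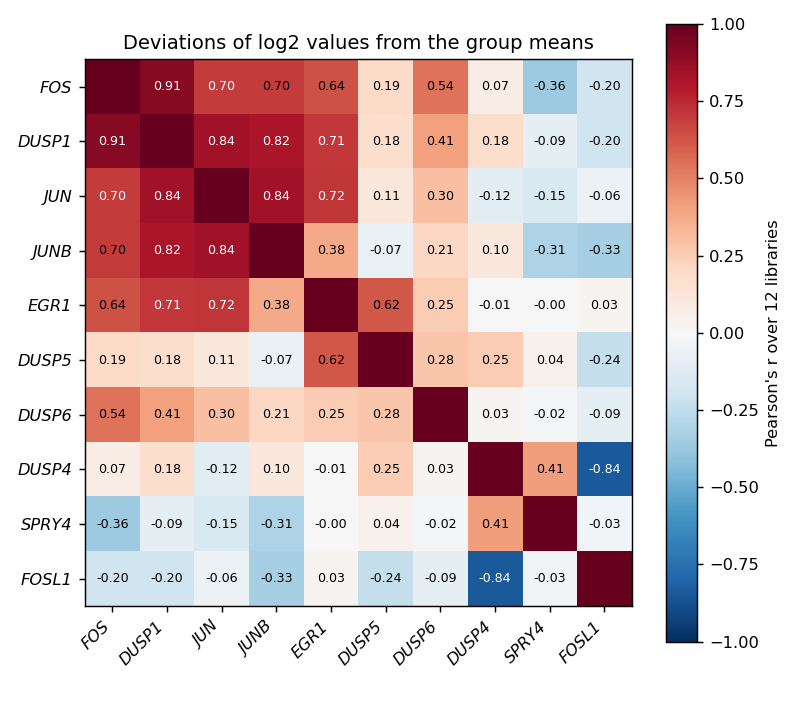
Pearson's r between the deviations of log2 normalised counts from the group means, over 12 libraries, for each pair of the 10 genes (colour scale from -1 to 1). FOS, DUSP1, JUN, JUNB and EGR1 form the block of high values at the upper left, from 0.38 to 0.91. FOSL1, which is scarce in CWR22RV1, gives the lowest value with DUSP4, at -0.84.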

How the data were processed

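RNA was extracted with an RNeasy kit, and libraries were made from polyadenylated RNA with a strand-keeping TruSeq kit. The submitters' processing notes list hg38, R 3.5.3, FastQC, Salmon and DESeq2. The authors deposited a table per cell line of normalised counts, a signal obtained by dividing the reads on each gene by a size factor for the library. Dividing by the value of 1 read returned whole reads for nearly all values (tolerance 0.01); for the 2 DU145 libraries whose factor is close to 1 the step could not be checked separately. No column was left unused.

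Gene names, positions and lengths came from GENCODE release 29 on GRCh38, which holds 94.4% of the identifiers. Genes whose normalised counts averaged 5 or more in a cell line (6 libraries) entered the test by limma 3.58.1 under R 4.3.3 (lmFit, then eBayes with an intensity trend) after log2(value + 1) transformation, with Benjamini-Hochberg adjustment over all genes tested, two-sided, at 0.05. Fold changes are on this scale, which understates the change of scarce genes. The cell lines were fitted separately, and groups follow the labels. The counting error was not compared with the spread between replicates.

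The 10 genes and all lists were chosen with earlier results of these data known. Named genes were the 10, GALNT7, all MAPK phosphatases, Sprouty and SPRED genes, the 3 largest rises and falls past the threshold per list and comparison with a mean of at least 50, and the 5 genes most like EGR1 and DUSP6. Promoters were searched over 250 bases. Alternatives were other pseudocounts (0.5 and 5), no filter or a mean of 20, 75th percentile scaling, quantile normalisation and the replicate number as a block. Others were no trend, an adjusted p of 0.01, each replicate left out, and edgeR 4.0.16 and DESeq2 1.42.0 on recovered reads. The main fit, the replicate block, edgeR and DESeq2 were checked on simulated data, and the other alternatives were not. A GC and length correction was added after seeing the data. A few genes are not reported here.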

Additional observations from a re-analysis of the deposited data

How the results depend on the processing

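Of 51 calls checked for genes of the lists, 36 held with each library left out in turn, 5 of 14 in knockdown and 31 of 37 in overexpression. Of 339 values of the 10 genes under alternatives, 318 kept their direction and their side of the threshold, 19 kept their direction but no longer passed, and 2 reversed, which were JUNB in knockdown without GALNT7 KD replicate 2 (0.066, within a range of -0.25 to 0.066 over the 6 libraries left out) and DUSP5 in knockdown without GALNT7 KD replicate 1 (-0.066, within -0.066 to 0.45). The values that no longer passed belong to DUSP1 and SPRY4 in knockdown and to DUSP5 in overexpression. The number of genes called in knockdown, 1623, was 1002 with the replicate block, 996 without a trend, 2642 with DESeq2 and 392 at an adjusted p of 0.01. It was 555, 848 and 686 without shControl replicate 1, 2 or 3, 539 and 1026 without GALNT7 KD replicate 1 or 2, and 539 to 1336 over all 6 libraries. The 8132 genes called in overexpression became 5303 at an adjusted p of 0.01. Of the 10 genes, the count higher in knockdown went from 1 to 0 with the block and at an adjusted p of 0.01, and was 0 to 1 with a library left out. Over all lists, 5 higher and 9 lower genes in knockdown became 12 and 15 with DESeq2. They became 9 and 15 with the GC and length correction, which was chosen after seeing the data. With a library left out they were 3 to 5 and 3 to 10. Over all genes tested in knockdown, 945 higher and 678 lower became 1481 and 1161 with DESeq2 and 1170 and 992 with that correction. The cause of these shifts was not tested, apart from fewer samples or a stricter threshold.

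The replicate numbers are not known to pair the libraries. Same-numbered libraries deviated together with correlations of 0.00063, 0.13 and 0.024 in CWR22RV1, where 3 of 6 correlated best with their own number, and of 0.041, 0.041 and 0.032 in DU145, where 6 of 6 did. With the replicate block in knockdown, DUSP1 had a limma adjusted p of 0.0509 and SPRY4 of 0.0815, and no other call among the 10 genes changed. Of these list genes, the block undid the calls of MAPK10 (limma adjusted p=0.0730), NR4A3 (0.0542) and SPRY2 (0.0946) in knockdown and of ELK4 (0.0508), MRTFA (0.0593) and SPRY3 (0.0617) in overexpression. A fit without a trend undid CCND1 (limma adjusted p=0.0780), IER2 (0.0544), MCL1 (0.0705) and HSP90AA1 (0.0844) in knockdown. In overexpression it undid ELK4 (0.0536), GADD45B (0.0598) and MAP2K3 (0.0721). With no filter on low counts MAPK10 (0.0732) and SPRY2 (0.0800) in knockdown and SPRY3 (0.0825) were lost. SPRY3 was also lost with quantile normalisation (limma adjusted p=0.239) and DESeq2 (DESeq2 adjusted p=0.0914). Normalised counts of at most 123 for DUSP5 and 35.2 for FOSL1 in CWR22RV1 limit what could be detected there.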
